A study of Mus musculus with 6 samples.

Results

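The mTORC1 pathway genes are *Mtor*, *Rptor*, *Deptor*, *Akt1s1*, *Tsc1*, *Tsc2*, *Rheb*, *Ddit4*, *Rps6kb1* and *Eif4ebp1*, chosen by name for their roles as subunits, switch, inhibitors and targets of the kinase complex. All 10 were found among the 54532 genes listed in the deposited count table, and all 10 passed the filter on low counts that left 15449 genes for testing. Liver RNA of 3 control and 3 g*Spns1*-cKO mice on a C57BL/6 background was sequenced after poly-A selection, with 1 library for each numbered liver. The g*Spns1*-cKO mice carried *Spns1* fl/fl together with Rosa26Cre-ERT2, a recombinase active throughout the body once tamoxifen is injected, which was done in the weeks after birth, so the deletion was not limited to hepatocytes. According to the methods, controls were *Spns1* fl/fl littermates, whereas the sample labels describe them as wild type. Whether the controls received tamoxifen, and the age and sex of the animals at harvest, are not given in the sources used here.

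mTORC1 is a kinase complex that sits on the lysosome and couples cell growth to amino acids, insulin and energy supply. Amino acids bring the complex to the lysosomal surface through the Rag GTPases, and the small GTPase *Rheb* then activates it unless the TSC complex holds *Rheb* in its inactive form. Once active, it phosphorylates S6 kinase and the 4E-BP proteins and so raises protein synthesis, while it restrains autophagy and the transcription factors of lysosome biogenesis. SPNS1 is a transporter of lysophospholipids in the lysosomal membrane. RNA levels report on transcripts and not on the phosphorylation of any of these proteins.

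The libraries held 30350002 to 35295611 counts. *Spns1*, the targeted gene, had 1008, 1562 and 875 counts in control replicates 1 to 3 and 642, 1175 and 698 counts in g*Spns1*-cKO replicates 1 to 3, and after scaling the groups did not overlap (log2 fold change -0.87, adjusted p = 0.0300, edgeR quasi-likelihood test). These counts cover the whole gene and not the deleted part alone. Among all genes tested, 3286 (21.3%) were higher in g*Spns1*-cKO liver at an adjusted p under 0.05 and 3166 (20.5%) were lower, so a call for any single gene was common in this comparison. The groups separated completely with g*Spns1*-cKO above control for 27.1% of genes and with g*Spns1*-cKO below control for 27% of genes. These values use TMM scaling, which multiplies the library totals by factors of 0.834 to 0.873 in control libraries and 1.16 to 1.18 in g*Spns1*-cKO libraries. With upper-quartile scaling the calls were 4111 higher and 2240 lower, and with library size alone they were 7289 higher and 970 lower.

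Markers of other liver cell types also differed between the groups. Of the 5 hepatocyte markers, 4 were listed by name, and 2 of these, *Alb* and *Apoa1*, were lower at TMM scaling. The summed level of the 4 was 89130 to 102354 CPM (counts per 1000000 counts, with library totals scaled by TMM) in control and 51680 to 60219 CPM in g*Spns1*-cKO liver. With library size alone *Alb* (log2 fold change -0.28, adjusted p = 0.210, edgeR) and *Apoa1* (-0.32, adjusted p = 0.190) were not called. All 7 macrophage markers were higher, at a summed 170 to 274 CPM in control and 647 to 950 CPM in g*Spns1*-cKO liver. All 5 cholangiocyte markers were higher (44.1 to 62.8 against 170 to 279 CPM), as were 4 of 5 stellate cell and fibroblast markers (137 to 157 against 387 to 462 CPM), 4 of 5 endothelial markers (124 to 138 against 177 to 217 CPM), both neutrophil markers that were tested, of 4 (1.88 to 3.31 against 4.64 to 8.74 CPM, with *Ly6g* at 0 in all g*Spns1*-cKO libraries) and 1 of 5 lymphocyte markers (1.74 to 2.63 against 3.99 to 5.31 CPM). None of the 3 tested markers of dividing cells, of 4, passed the threshold by edgeR (2.34 to 4.94 against 1.98 to 10.2 CPM). In whole liver, fewer cells of a type and less RNA per cell cannot be told apart, and the part of these markers in the differences described here was not tested.

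Of the 10 mTORC1 pathway genes, 1 was higher and 4 were lower in g*Spns1*-cKO liver at an adjusted p under 0.05 (edgeR), beside 21.3% and 20.5% of all genes. The groups did not overlap for 1 member with g*Spns1*-cKO above control and for 5 with g*Spns1*-cKO below, beside 27.1% and 27% of all genes. *Ddit4*, an inhibitor that acts upstream of the TSC complex, rose. *Rptor*, *Akt1s1*, *Deptor* and *Rheb* fell by modest amounts. *Mtor*, *Tsc1*, *Tsc2*, *Rps6kb1* and *Eif4ebp1* were not called. The median log2 fold change over the 10 genes was -0.28, beside 0.01 over all genes tested, for which the quartiles were -0.37 and 0.53. *Rptor* and *Akt1s1* stayed below 0 under every alternative tried, whereas *Deptor* and *Rheb* turned above 0 with library size alone. With library size alone no member was lower and 3 were higher (all 15449 genes: 970 and 7289). With upper-quartile scaling 2 were lower and 2 were higher (all genes: 2240 and 4111). Library size alone moved the median of all genes to 0.46 and upper-quartile scaling moved it to 0.14. Relative to the median of all genes, the median of the 10 members was -0.29 under each of the 3 scalings. A change of scaling shifts all genes by nearly the same amount, so this value could hardly differ and is no separate support.

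**Figure D1:**
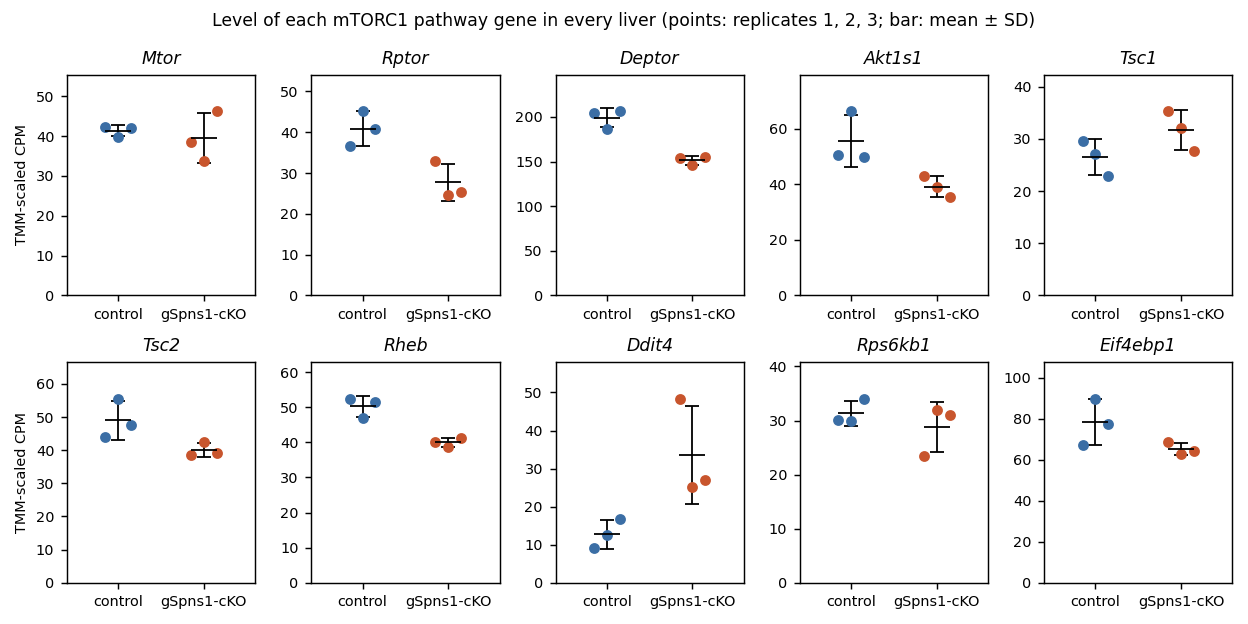
Level of each mTORC1 pathway gene in every liver, with TMM-scaled CPM on the y axis starting at 0, points for replicates 1 to 3 and bars for the mean ± SD (n = 3). *Ddit4* lay above all control libraries in all 3 g*Spns1*-cKO libraries, and *Rptor*, *Deptor*, *Akt1s1*, *Tsc2* and *Rheb* lay below them at this scaling, whereas with library size alone the log2 fold changes of *Deptor*, *Tsc2* and *Rheb* were above 0.

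The RefSeq promoters (GRCm38.p6, from 250 bases before to 50 bases after each start) were available for 8 of the 10 genes, all but *Deptor* and *Eif4ebp1*. They were searched on both strands for CACGTG, the E-box core that the MiT/TFE factors can bind, and for TGATGNAA, the core of the C/EBP-ATF response element, and the end of the first motif can overlap the start of the second. CACGTG was present in 7.15% of 32851 promoters of this length and TGATGNAA in 3.97%. Among the members, *Rheb* alone held CACGTG, 96 to 91 bases before its start, and no member held TGATGNAA, which says only that these letters are not in this window. The 3 sequences shown, 5′ to 3′ on the strand of the gene, belong to the called member with the E-box, the member that rose and the member that fell most. The capitals mark the E-box, and the *Rheb* window, chr5:24842440-24842469 on the minus strand, lies in an untranslated exon of a GENCODE model that starts further upstream. The *Ddit4* window, chr10:59951835-59952020 on the minus strand, and the *Rptor* window, chr11:119602655-119602904 on the plus strand, lie upstream of the annotated genes.
Rheb: gccgcgcgcggtCACGTGggtgtgttgttg
Ddit4: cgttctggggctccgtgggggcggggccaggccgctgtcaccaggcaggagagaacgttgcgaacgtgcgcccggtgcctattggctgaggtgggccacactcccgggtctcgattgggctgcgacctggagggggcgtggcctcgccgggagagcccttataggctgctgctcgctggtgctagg
Rptor: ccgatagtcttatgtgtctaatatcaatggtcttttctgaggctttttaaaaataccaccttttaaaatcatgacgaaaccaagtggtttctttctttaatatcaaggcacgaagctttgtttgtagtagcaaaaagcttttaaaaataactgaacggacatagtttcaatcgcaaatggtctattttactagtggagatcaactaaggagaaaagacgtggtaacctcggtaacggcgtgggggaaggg
The bases upstream of the start were 70.0% G or C in *Ddit4*, 68.0% in *Rheb* and 37.6% in *Rptor*, and the median over all promoters was 52.4%.

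Within the complex itself, transcripts of the scaffold and of both inhibitory subunits were lower at TMM scaling, and that of the kinase was not called. *Mtor* (ENSMUSG00000028991, GRCm38 chromosome 4, 148448611 to 148557683, plus strand) encodes the kinase. Its level was 42.2, 39.9 and 42.1 CPM in control replicates 1 to 3 and 38.4, 33.8 and 46.2 CPM in g*Spns1*-cKO replicates 1 to 3. The g*Spns1*-cKO values spread to both sides of the control values, and the log2 fold change was -0.07 (SE 0.12, 95% interval -0.34 to 0.21, adjusted p = 0.690, edgeR quasi-likelihood test). With library size alone *Mtor* was called at 0.38 (adjusted p = 0.0243), where the median of all genes was 0.46. Relative to the median of all genes *Mtor* was at -0.08 under both scalings, because a change of scaling shifts all genes by nearly the same amount.

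*Rptor* (ENSMUSG00000025583, chromosome 11, 119602905 to 119899576, plus strand) encodes raptor, the scaffold that recruits substrates to mTORC1. Its level was 36.5, 45.1 and 40.9 CPM in control and 33.0, 24.7 and 25.5 CPM in g*Spns1*-cKO replicates 1 to 3. Every g*Spns1*-cKO library lay below every control library, with g*Spns1*-cKO replicate 1 nearest to the controls. The control mean was 40.8 ± 4.30 CPM and the g*Spns1*-cKO mean 27.7 ± 4.59 CPM (SD, n = 3), which gave a log2 fold change of -0.56 (SE 0.14, adjusted p = 0.00814, edgeR), and 40.3% of all genes tested had a change of at least this size. *Rptor* was the one called decrease that passed the threshold in each of the 6 fits that left out a mouse (adjusted p between 0.00118 and 0.0407), and with library size alone it was -0.12 (adjusted p = 0.488).

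*Akt1s1* (ENSMUSG00000011096, chromosome 7, 44848991 to 44855421, plus strand) encodes PRAS40, a subunit that inhibits the complex until Akt phosphorylates it. The 3 control libraries gave 50.5, 66.3 and 49.96 CPM and the g*Spns1*-cKO libraries 42.9, 39.3 and 35.6 CPM. Control replicate 2 stood above the rest, and the groups did not overlap. The log2 fold change was -0.50 (SE 0.13, adjusted p = 0.0125, edgeR). The call was lost without g*Spns1*-cKO replicate 3 (adjusted p = 0.0578) and with library size alone (log2 fold change -0.06, adjusted p = 0.724).

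*Deptor* (ENSMUSG00000022419, chromosome 15, 55112317 to 55259271, plus strand) encodes an inhibitory subunit shared by both mTOR complexes. Control libraries gave 204, 187 and 206 CPM and g*Spns1*-cKO libraries 154, 146 and 156 CPM. The spread within each group was small beside the gap between them. The means were 199 ± 10.9 and 152 ± 5.07 CPM (SD, n = 3), with a log2 fold change of -0.39 (SE 0.11, adjusted p = 0.0162, edgeR). Before scaling, the counts of 5222 to 5753 in control and 5528 to 6119 in g*Spns1*-cKO libraries overlapped, and with library size alone the log2 fold change was 0.05 (adjusted p = 0.694). The call was also lost with upper-quartile scaling (adjusted p = 0.0767) and without control replicate 3 or g*Spns1*-cKO replicate 3 (adjusted p = 0.0565 and 0.0548).

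The other subunits of the mTOR complexes and their chaperones, a list of 9 genes of which all were tested, gave 1 higher and 1 lower call with a median log2 fold change of 0.11. *Mlst8*, a subunit of both complexes, was at 5.28 ± 1.32 CPM in control and 5.56 ± 0.499 CPM in g*Spns1*-cKO liver (log2 fold change 0.08, adjusted p = 0.796, edgeR). *Rictor*, the scaffold of mTORC2, was at 19.7 ± 3.04 and 21.2 ± 1.33 CPM (0.11, adjusted p = 0.534). *Fkbp1a*, the protein to which rapamycin binds, was at 80.0 ± 2.64 and 95.01 ± 16.0 CPM (0.25, adjusted p = 0.153). Both called genes encode related binding partners of mTORC2. *Prr5* fell from 6.90 ± 0.883 to 4.14 ± 0.913 CPM (-0.74, adjusted p = 0.0162) while *Prr5l* rose from 1.099 ± 0.171 to 2.17 ± 0.137 CPM (0.97, adjusted p = 0.0148). Of all genes, 21.3% were higher and 20.5% lower at TMM scaling. With library size alone the list gave 5 higher and 0 lower calls (all 15449 genes: 7289 and 970).

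At the switch upstream of the complex, the inhibitor *Ddit4* rose, *Rheb* fell, and the transcripts of both TSC subunits did not pass the threshold. *Ddit4* (ENSMUSG00000020108, chromosome 10, 59949669 to 59951834, minus strand) encodes REDD1, which is induced by hypoxia, glucocorticoids and other stresses and keeps mTORC1 inactive through the TSC complex. The control libraries gave 256, 386 and 421 counts, or 9.10, 12.5 and 16.6 CPM, and the g*Spns1*-cKO libraries 1742, 964 and 1066 counts, or 48.4, 25.1 and 27.1 CPM. All 3 g*Spns1*-cKO libraries lay above the controls, and g*Spns1*-cKO replicate 1 stood well above the other two. The mean rose from 12.8 ± 3.77 to 33.5 ± 12.9 CPM (SD, n = 3), which is 2.63-fold (log2 fold change 1.40, SE 0.33, 95% interval 0.58 to 2.21, adjusted p = 0.0181, edgeR). This was the largest change among the 10 members, and 12.7% of all genes tested changed at least as much. *Ddit4* stayed higher under every scaling tried, at 1.52 with upper-quartile scaling and 1.84 with library size alone. Both of these move all genes upward (median 0.14 and 0.46), so neither could have removed an increase. Relative to the median of all genes *Ddit4* was at 1.38 with TMM, 1.38 with upper-quartile scaling and 1.39 with library size alone. Without g*Spns1*-cKO replicate 1 the log2 fold change at TMM scaling was 1.03 (adjusted p = 0.00511, edgeR). Without control replicate 2 the call was lost (1.38, adjusted p = 0.0655).

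*Rheb* (ENSMUSG00000028945, chromosome 5, 24802823 to 24842624, minus strand) encodes the GTPase that activates mTORC1 directly. Its level was 52.4, 46.8 and 51.4 CPM in control and 40.0, 38.7 and 41.3 CPM in g*Spns1*-cKO replicates 1 to 3. The groups were tight and separate at this scaling, with a log2 fold change of -0.33 (SE 0.10, adjusted p = 0.0224, edgeR). The call was lost in 4 of the 6 fits without a mouse (control replicates 1 and 3 and g*Spns1*-cKO replicates 2 and 3, adjusted p between 0.0580 and 0.0651), with upper-quartile scaling (-0.20, adjusted p = 0.134) and with library size alone (0.12, adjusted p = 0.324).

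*Tsc1* (ENSMUSG00000026812, chromosome 2, 28641228 to 28691167, plus strand) encodes hamartin, which stabilises the TSC complex. Its level was 29.6, 27.0 and 22.8 CPM in control and 35.3, 32.2 and 27.7 CPM in g*Spns1*-cKO replicates 1 to 3. The lowest g*Spns1*-cKO library lay below the highest control library, and the log2 fold change was 0.26 (SE 0.13, 95% interval -0.03 to 0.55, adjusted p = 0.141, edgeR). It was called with upper-quartile scaling (0.39, adjusted p = 0.0406) and with library size alone (0.70, adjusted p = 0.00190), and it was smaller without control replicate 3 (0.15, adjusted p = 0.419) or g*Spns1*-cKO replicate 1 (0.17, adjusted p = 0.344).

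*Tsc2* (ENSMUSG00000002496, chromosome 17, 24595816 to 24632630, minus strand) encodes tuberin, the subunit that switches *Rheb* off. Its level was 44.1, 55.5 and 47.6 CPM in control and 38.4, 42.5 and 39.0 CPM in g*Spns1*-cKO replicates 1 to 3. The groups did not overlap, but the log2 fold change of -0.30 (SE 0.11, adjusted p = 0.0586, edgeR) missed the threshold. Of its 9620 exonic bases, 693 overlap *Pkd1* on the opposite strand, and because the strand setting of the counting is not given in the sources used here, reads of the 2 genes cannot be told apart there. Overlaps with genes on the opposite strand covered 303 of 8874 exonic bases of *Deptor*, 155 of 8658 of *Rps6kb1*, 89 of 3072 of *Akt1s1* and 84 of 13471 of *Rptor*.

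The other inputs to the switch, 21 genes that were all tested, gave 5 higher and 2 lower calls with a median log2 fold change of 0.14 (all genes: 21.3% higher and 20.5% lower). The calls were 9 higher and 2 lower with upper-quartile scaling (all 15449 genes: 4111 and 2240). They were 16 higher and 1 lower with library size alone (all genes: 7289 and 970). *Ddit4l*, a paralog of *Ddit4*, rose from 17, 10 and 20 counts in control to 107, 221 and 127 counts in g*Spns1*-cKO livers, from 0.573 ± 0.234 to 3.98 ± 1.54 CPM (log2 fold change 2.81, SE 0.39, adjusted p = 0.000374, edgeR). *Sesn1*, a sestrin that restrains mTORC1, rose from 13.3 ± 2.32 to 20.7 ± 2.49 CPM (0.64, adjusted p = 0.00664). The other sestrins, *Sesn2* (0.38, adjusted p = 0.0831) and *Sesn3* (0.05, adjusted p = 0.859), were not called. *Ddit4*, *Ddit4l* and *Sesn1* passed the threshold under all 3 scalings. Upper-quartile scaling and library size alone raise all genes, so they could not have removed these increases.

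*Akt1* and *Akt2* encode kinases that inhibit the TSC complex in response to insulin. *Akt2* fell from 147 ± 22.6 to 102 ± 6.68 CPM (log2 fold change -0.53, adjusted p = 0.00891, edgeR), with no call at library size alone (-0.08, adjusted p = 0.608). *Akt1* was at 58.0 ± 11.7 and 69.5 ± 3.81 CPM (0.26, adjusted p = 0.163). *Stk11*, which encodes the AMPK-activating kinase LKB1, fell from 113 ± 12.5 to 64.6 ± 2.64 CPM (-0.80, adjusted p = 0.000426), and it was also lower with library size alone (-0.36, adjusted p = 0.0231). *Prkaa2*, a catalytic subunit of AMPK, was at 77.8 ± 9.82 and 79.4 ± 10.2 CPM (0.03, adjusted p = 0.873). *Tbc1d7*, the third subunit of the TSC complex, was at -0.26 (adjusted p = 0.259) and *Rhebl1*, a relative of *Rheb*, at -0.07 (adjusted p = 0.894), the latter with only 24 to 48 counts per library.

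**Figure D2:**
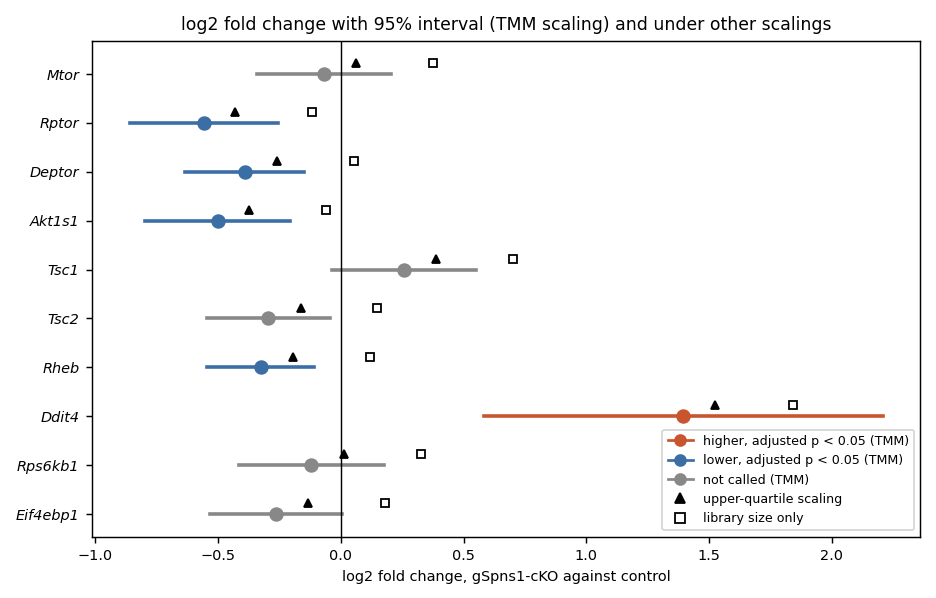
log2 fold change of each mTORC1 pathway gene, g*Spns1*-cKO against control, on the x axis, with circles and 95% intervals for TMM scaling and black symbols for other scalings. *Ddit4* lay at 1.40 with an interval of 0.58 to 2.21 and stayed above 0 at every scaling, whereas the 4 genes called lower moved toward or past 0 when library size alone was used. Library size alone shifts all genes upward (median 0.46), which is away from 0 for *Ddit4* and toward 0 for the decreases.

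The members that carry the output of the complex did not pass the threshold. *Rps6kb1* (ENSMUSG00000020516, chromosome 11, 86498871 to 86544805, minus strand) encodes S6 kinase 1. Its level was 30.1, 29.9 and 34.0 CPM in control and 23.5, 32.0 and 30.9 CPM in g*Spns1*-cKO replicates 1 to 3. Only g*Spns1*-cKO replicate 1 lay below all controls, and the log2 fold change was -0.12 (SE 0.13, 95% interval -0.41 to 0.17, adjusted p = 0.499, edgeR).

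*Eif4ebp1* (ENSMUSG00000031490, chromosome 8, 27260329 to 27276674, plus strand) encodes 4E-BP1, which blocks cap-dependent translation until mTORC1 phosphorylates it. Its level was 67.4, 89.9 and 77.8 CPM in control and 68.8, 62.9 and 64.2 CPM in g*Spns1*-cKO replicates 1 to 3. Control replicate 1 lay within the g*Spns1*-cKO range, and the log2 fold change was -0.26 (SE 0.12, 95% interval -0.53 to 0.01, adjusted p = 0.107, edgeR). Without that control library it was -0.37 (adjusted p = 0.0373), and without control replicate 2, the highest, it was -0.16 (adjusted p = 0.325).

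The 12 other genes of the translation arm, all tested, gave 0 higher and 5 lower calls by edgeR at TMM scaling (all genes: 21.3% and 20.5%). Their median log2 fold change was -0.26. With library size alone they gave 4 higher and 0 lower calls (all 15449 genes: 7289 and 970). *Eif4b*, a cofactor of the eIF4A helicase, fell from 340 ± 23.0 to 215 ± 6.03 CPM (-0.66, adjusted p = 0.00166). *Pdcd4*, an inhibitor of that helicase, fell from 65.8 ± 11.5 to 43.1 ± 10.9 CPM (-0.61, adjusted p = 0.0299), and the elongation factor *Eef2* fell from 1933 ± 288 to 1352 ± 127 CPM (-0.51, adjusted p = 0.0298). Paralogs of both targets were called lower as well. *Rps6kb2*, which encodes S6 kinase 2, fell by 0.36 on the log2 scale (adjusted p = 0.0424) and *Eif4ebp2* fell by 0.35 (adjusted p = 0.0445), and both lost the call with upper-quartile scaling (adjusted p = 0.191 and 0.186), as did *Pdcd4* (adjusted p = 0.0629) and *Eef2* (adjusted p = 0.0916), so that *Eif4b* was the 1 lower call left. *Eif4ebp3* (0.15, adjusted p = 0.818), the cap-binding protein *Eif4e* (0.08, adjusted p = 0.631) and the S6 kinase substrate *Rps6* (-0.25, adjusted p = 0.202) were not called.

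A ratio of 2 genes in the same library does not depend on how libraries are scaled, so the members were also compared with *Mtor* as log2 ratios of counts per kilobase. The ratio of *Ddit4* to *Mtor* was 0.31, 0.86 and 1.18 in control replicates 1 to 3 and 2.86, 2.10 and 1.76 in g*Spns1*-cKO replicates 1 to 3, a difference of 1.45. The groups did not overlap. The ratios to *Mtor* were lower without overlap for *Rptor* (difference -0.49), *Akt1s1* (-0.41), *Deptor* (-0.31) and *Rheb* (-0.25), and they overlapped for *Tsc1* (0.34), *Tsc2* (-0.21), *Eif4ebp1* (-0.17) and *Rps6kb1* (-0.05). Leaving out each mouse in turn moved these overlapping differences to 0.22 to 0.55 for *Tsc1*, -0.36 to -0.07 for *Tsc2*, -0.29 to -0.04 for *Eif4ebp1* and -0.24 to 0.07 for *Rps6kb1*. For *Rptor*, *Deptor*, *Rheb* and *Akt1s1* the difference shrank to -0.31, -0.21, -0.15 and -0.23 without g*Spns1*-cKO replicate 3, the library with the highest *Mtor* level. For *Akt1s1* it was -0.25 without control replicate 2.

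The log2 ratio of *Tsc1* to *Tsc2* was -0.87, -1.34 and -1.36 in control and -0.42, -0.70 and -0.80 in g*Spns1*-cKO replicates 1 to 3. All g*Spns1*-cKO ratios lay above all control ratios, with a mean difference of 0.55 that ranged from 0.44 to 0.71 when each mouse was left out. The ratio of *Rptor* to *Rictor*, the scaffolds of mTORC1 and mTORC2, was 1.07, 1.81 and 1.29 in control and 1.04, 0.45 and 0.61 in g*Spns1*-cKO livers. It was lower without overlap by a difference of -0.69, although g*Spns1*-cKO replicate 1 and control replicate 1 were nearly equal. The ratio of *Eif4ebp1* to *Eif4e*, an inhibitor and its target, differed by -0.34 without overlap and by -0.14 without control replicate 2, whereas the ratio of *Eif4ebp1* to *Eif4ebp2* overlapped (0.10). Of the 13 ratios, 2 were higher and 6 lower without overlap. The share of all genes whose ratio to *Mtor* separates was not computed, so these counts have no background. For scaled levels of single genes the shares were 27.1% and 27%. As *Mtor* was not called at TMM scaling, ratios to it largely repeat the fold changes of the members. Each of these 8 ratios reached p = 0.1 in the exact two-sided permutation test, the smallest value that 3 against 3 mice allow. After Benjamini-Hochberg adjustment over the 13 it was 0.163, so none could pass 0.05.

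**Figure D3:**
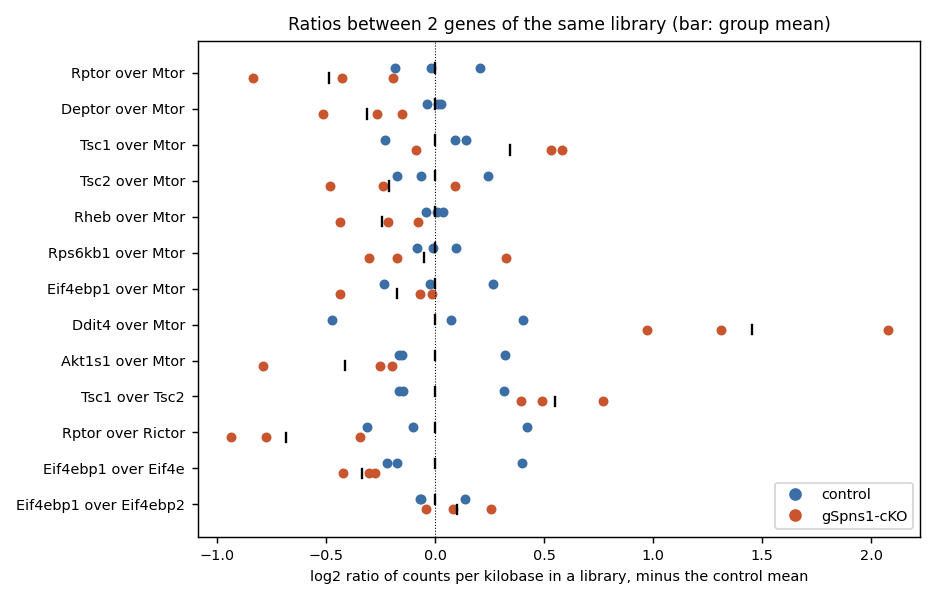
log2 ratio of counts per kilobase of 2 genes of the same library, minus the control mean, on the x axis, with 1 point per liver and a bar at each group mean. Ratios of *Ddit4* to *Mtor* lay 1.45 higher in g*Spns1*-cKO livers and ratios of *Tsc1* to *Tsc2* lay 0.55 higher, both without overlap between the groups.

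The genes also changed places in the order of levels per kilobase of summed exon length. In control liver *Eif4ebp1* led with 35.7 ± 5.13 CPM per kilobase, followed by *Deptor* at 22.4 ± 1.23 and *Akt1s1* at 18.1 ± 3.03, whose ranges overlapped. *Ddit4* at 7.27 ± 2.15 and *Rheb* at 6.50 ± 0.385 also overlapped, and then came *Tsc2* at 5.10, *Mtor* at 4.10, *Rps6kb1* at 3.62, *Rptor* at 3.03 and *Tsc1* at 2.24, each clear of its neighbour. In g*Spns1*-cKO liver *Eif4ebp1* again led at 29.7 ± 1.40, and *Ddit4* came next at 19.1 ± 7.35, with a range that overlapped that of *Deptor* at 17.1 ± 0.572. *Akt1s1* at 12.8 and *Rheb* at 5.18 were clear of their neighbours, and *Tsc2* at 4.16, *Mtor* at 3.91, *Rps6kb1* at 3.33, *Tsc1* at 2.68 and *Rptor* at 2.06 each overlapped the next in the order. *Rptor* stood above *Tsc1* without overlap in control liver, and their ranges overlapped in g*Spns1*-cKO liver.

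Other substrates and feedback genes of the mTOR complexes, 13 in all and all tested, gave 3 higher and 4 lower calls (all genes: 21.3% and 20.5%). Their median log2 fold change was 0.05. With library size alone the calls were 7 higher and 0 lower (all 15449 genes: 7289 and 970). *Sgk1*, a kinase activated by mTORC2, rose from 18.1 ± 3.01 to 47.6 ± 10.2 CPM (1.39, adjusted p = 0.000297, edgeR), and *Grb10*, an adaptor that dampens insulin signalling, rose from 2.92 ± 0.861 to 5.82 ± 0.364 CPM (0.99, adjusted p = 0.00743). *Mitf* rose from 2.28 ± 0.339 to 4.12 ± 0.571 CPM (0.85, adjusted p = 0.0122), whereas *Tfeb*, another transcription factor of its family, fell from 13.5 ± 2.55 to 9.12 ± 0.488 CPM (-0.57, adjusted p = 0.0136). *Ulk1*, the kinase that starts autophagy, fell from 113 ± 5.04 to 82.9 ± 16.5 CPM (-0.45, adjusted p = 0.0284), and the phosphatidate phosphatase *Lpin1* was not called (0.11, adjusted p = 0.539). These 2 decreases were no longer called with library size alone (*Tfeb* -0.13, adjusted p = 0.520, and *Ulk1* -0.0044, adjusted p = 0.981).

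The amino acid sensing machinery of the lysosome held the largest change of any pathway gene named here with more than 3 counts in each library. Of its 27 genes, 26 were tested (*Rragb* was not), and 6 were higher and 5 lower, with a median log2 fold change of 0.04 (all genes: 21.3% higher and 20.5% lower). The calls were 7 higher and 3 lower with upper-quartile scaling (all 15449 genes: 4111 and 2240). They were 17 higher and 1 lower with library size alone (all genes: 7289 and 970). *Rragd*, a Rag GTPase, was at 57, 47 and 51 counts in control and 2740, 1716 and 2345 counts in g*Spns1*-cKO livers. The groups lay far apart, and the mean rose from 1.86 ± 0.286 to 60.1 ± 15.7 CPM, which is 32.5-fold (log2 fold change 5.02, SE 0.23, adjusted p = 1.87e-06, edgeR). *Lamtor3*, a subunit of the Ragulator that anchors the Rags, rose from 14.5 ± 1.15 to 24.4 ± 2.05 CPM (0.75, adjusted p = 0.000818), and *Nprl2*, a subunit of the GATOR1 complex that inhibits them, fell from 17.6 ± 1.46 to 9.89 ± 0.988 CPM (-0.83, adjusted p = 0.000804). All 3 calls held with library size alone, at 5.46, 1.19 and -0.39. That scaling raises all genes (median 0.46), so it could have removed only the decrease of *Nprl2*. The other Ragulator subunits, named after their values were seen, were not higher at TMM scaling, where *Lamtor2* (-0.51, adjusted p = 0.00206), *Lamtor4* (-0.58, adjusted p = 0.00122) and *Lamtor5* (-0.39, adjusted p = 0.0132) fell, and *Lamtor1* was not called (0.0087, adjusted p = 0.958). With library size alone none of these 4 was called lower, *Lamtor5* was at 0.05 (adjusted p = 0.672) and *Lamtor1* was called higher (0.45, adjusted p = 0.00528).

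Among 24 transcripts that are known to follow mTORC1 activity in other settings, all tested, 10 were higher and 2 lower (all genes: 21.3% and 20.5%). Their median log2 fold change was 0.57. With library size alone 16 were higher and 0 lower (all 15449 genes: 7289 and 970). *Pfkp*, a phosphofructokinase of glycolysis, rose from 82, 71 and 38 counts in control to 1021, 622 and 1308 counts in g*Spns1*-cKO livers (3.52, SE 0.34, adjusted p = 0.000292, edgeR). *Hk2*, a hexokinase, rose from 0.647 ± 0.405 to 2.99 ± 0.500 CPM (2.21, adjusted p = 0.00168). *Slc7a11*, the cystine transporter, had 1, 0 and 0 counts in control and 102, 25 and 125 counts in g*Spns1*-cKO livers, so that no fold is given. It passed the filter only through its g*Spns1*-cKO counts, and it is included in the 10 higher calls and in the median of 0.57. The 2 decreases, named after their values were seen, were those of *Ldha*, a lactate dehydrogenase subunit, from 1195 ± 210 to 676 ± 76.3 CPM (-0.82, adjusted p = 0.00373), and *Shmt2*, a mitochondrial enzyme of serine metabolism, from 311 ± 7.53 to 205 ± 26.1 CPM (-0.60, adjusted p = 0.00443). The macrophage, cholangiocyte and stellate cell markers described above rose in the same livers, and their part in these increases was not tested.

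Among 19 genes that respond to stress or glucocorticoids, as *Ddit4* does, all tested, 3 were higher and 4 lower, with a median log2 fold change of 0.04. These shares were near those of all genes (21.3% and 20.5%). With library size alone 6 were higher and 2 lower (all 15449 genes: 7289 and 970). *Atf3* rose from 1.01 ± 0.138 to 5.67 ± 1.205 CPM (2.48, adjusted p = 6.34e-05, edgeR) and *Cdkn1a*, a cell cycle inhibitor, from 1.95 ± 0.989 to 7.57 ± 0.482 CPM (1.97, adjusted p = 0.000731). *Angptl4*, a lipase inhibitor and a known glucocorticoid and fasting target, fell from 286 ± 46.3 to 39.4 ± 19.9 CPM (-2.86, adjusted p = 0.00326). The other called genes of the list, named after their values were seen, went both ways. *Pdk4* rose (1.11, adjusted p = 0.00411), and *Fgf21* (-1.28, adjusted p = 0.00774), *Tsc22d3* (-0.65, adjusted p = 0.0124) and *Klf9* (-0.56, adjusted p = 0.00668) fell. With library size alone *Tsc22d3* and *Klf9* were not called (adjusted p = 0.319 and 0.471). *Atf4* was at 128 ± 15.4 and 132 ± 4.24 CPM (0.04, adjusted p = 0.799), and *Trib3*, a gene that ATF4 induces, ranged from 160 to 443 counts in g*Spns1*-cKO libraries and from 154 to 190 in control (0.48, adjusted p = 0.336).

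**Figure D4:**
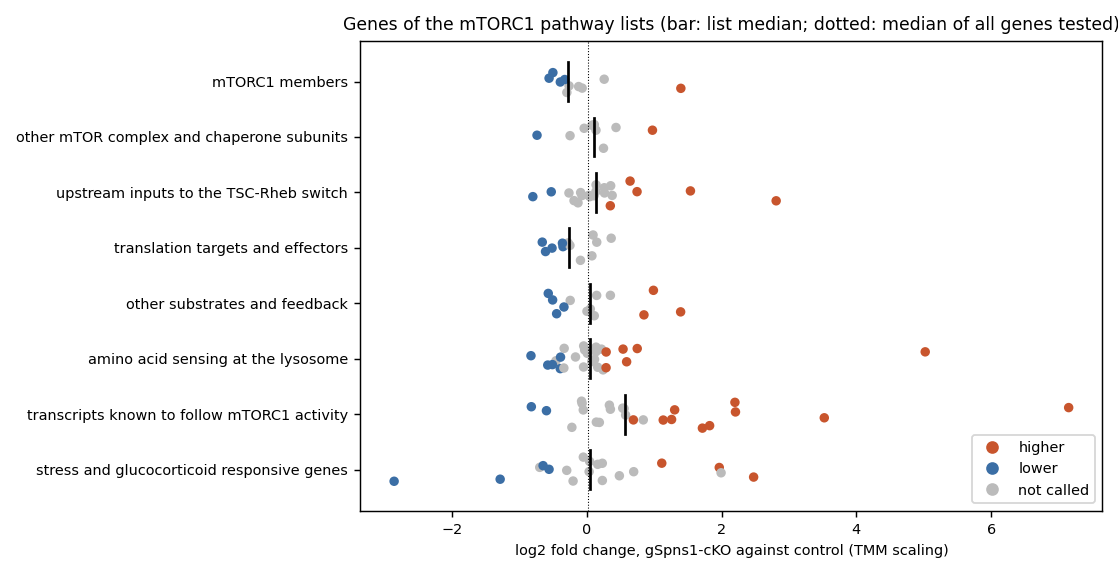
log2 fold change (TMM scaling) on the x axis of every tested gene of the member list and of 7 further lists, 1 point per gene, with a bar at each list's median and a dotted line at the median of all genes tested. The members lay at a median of -0.28 and the transcripts that follow mTORC1 activity at 0.57. With library size alone these medians were 0.16 and 1.00, where the median of all genes was 0.46. The point beyond 7 is *Slc7a11*, whose fitted value rests on 1 count in all control libraries together.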

How the data were processed

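RNA-Seq was analysed for 3 control and 3 g*Spns1*-cKO livers. The authors deposited 1 table with whole-number counts per gene and library, not normalized; per the labels, the processing notes name fastp, HISAT2 2.0.5, featureCounts 1.5.0-p3 and mm10, and the strand setting is not given in the sources used here. The deposited FPKM, the authors' signal per group (mean normalized counts) and the columns of the authors' group comparison (log2 fold changes with p-values, raw and adjusted) were not used.

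Counts were tested in R 4.3.3 with edgeR 4.0.16 (filterByExpr, TMM, robust quasi-likelihood test, no covariate, Benjamini-Hochberg over 15449 genes, threshold 0.05), with the SE taken as the log2 fold change over the square root of F. CPM per kilobase uses the deposited gene lengths. Ratios were compared by exact two-sided permutation tests in Python 3.11.15. Depth was 30350002 to 35295611 counts per library. No 2 libraries of a group agreed within sampling noise (chi-square per gene 42.5 to 126).

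The members and gene lists were chosen with earlier results of these data known. Named genes are the members, genes fixed by role, and the 3 called genes of each list with the largest change and a mean of at least 1 CPM. One gene that this rule selects is not reported here. Alternatives were DESeq2 1.42.0, limma-voom (limma 3.58.1), 3 other scalings, 2 other filters, a threshold of 0.01, a replicate block and leaving out each mouse. The script was checked on simulated counts.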

Additional observations from a re-analysis of the deposited data

How the results depend on the processing

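Another scaling shifted all genes by nearly the same amount. With library size alone, members called higher numbered 3 and members called lower 0 (all genes: 7289 and 970), and with upper-quartile scaling they numbered 2 and 2. Library size alone turned *Mtor* (0.38), *Deptor* (0.0525), *Tsc2* (0.15), *Rheb* (0.12), *Rps6kb1* (0.33) and *Eif4ebp1* (0.18) above 0 on the log2 scale, and upper-quartile scaling did so for *Mtor* (0.0622) and *Rps6kb1* (0.0136). These turns follow the shift of all genes, whose median was 0.46 and 0.14, and relative to it *Mtor* stayed at -0.08, *Rheb* at -0.34 and *Deptor* at -0.40 to -0.41. Over the fits without 1 mouse, *Mtor* ranged from -0.197 to 0.0324, with the turn without g*Spns1*-cKO replicate 2, and *Rps6kb1* from -0.202 to 0.0043, with the turn without g*Spns1*-cKO replicate 1. At a threshold of 0.01, 0 members were higher and 1 was lower by edgeR (all genes: 1983 and 1907). When each mouse was left out in turn, 0 to 1 members were higher and 1 to 5 lower; *Ddit4* lost its call without control replicate 2, 2 members were lower without control replicate 3 and 1 without g*Spns1*-cKO replicate 3. DESeq2, limma-voom, RLE scaling and both other filters kept the counts of 1 member higher and 4 lower. The cause of these differences was not tested beyond the construction of each alternative.

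With the replicate number as a block, 0 members were higher and 4 lower by edgeR (*Ddit4* 1.36, adjusted p = 0.0626; all genes 3084 and 3016). The deviations of same-numbered livers correlated at 0.047, 0.033 and -0.022, and control replicate 1 correlated best with g*Spns1*-cKO replicate 3 (0.051), so that the numbers were not taken as pairs. In all, of 140 recomputed log2 fold changes of members, 113 kept direction and call, 13 lost the call, 4 gained it and 10 turned. All 91 recomputed ratios moved by less than the larger SD of the compared groups. Leaving out 1 of 3 livers cannot move a group mean by that much, and adding 1 count hardly changes these ratios. This count is therefore no test of their stability. With 3 mice per group, a change as small as that of *Tsc2* (adjusted p = 0.0586, edgeR) lay near the threshold. *Tsc1* and *Eif4ebp1* (adjusted p = 0.141 and 0.107) lay further from it, and their 95% intervals included 0.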
